A study of Homo sapiens with 15 samples.

Results

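The proteasome genes of PE/CA-PJ41 cells, a human oral squamous carcinoma line, were followed on 15 microarrays that compared cells labelled as expressing cytoglobin (CYGB+) with cells labelled as not expressing it (NCE). Members were all array probes that carry a RefSeq accession of a gene whose symbol starts with PSMA to PSMG and a number, without the 3 inducible catalytic subunits PSMB8, PSMB9 and PSMB10. This gave 49 genes of the 19483 named by the accessions of the array, with 66 probes among 42405 non-control probes. Of these, 60 probes for 45 genes fell into 6 role groups, and the other 6 probes belonged to 4 genes that share only the start of the symbol. Both groups were grown in supplemented medium for 24 h before RNA was taken. Per the labels, NCE cells carried an empty transfection vector and CYGB+ cells carried pCMV6-Neo with the human cytoglobin cDNA, as stable transfectants picked in G418. The study's text in places calls the control un-transfected, so that whether it went through transfection and G418 is not settled by the sources. Per the methods the CYGB+ cells were 1 clone, LST421, so a difference between the groups cannot be told apart from a difference between that clone and the control cells. Each group had 3 biological replicates, hybridised on 9 NCE and 6 CYGB+ arrays, and repeats were averaged.

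The proteasome degrades proteins that carry ubiquitin chains. Its core particle is a barrel of 2 outer alpha rings (PSMA subunits), which gate the entrance, and 2 inner beta rings (PSMB subunits), of which PSMB5, PSMB6 and PSMB7 cut peptides. A regulatory cap holds a ring of 6 ATPases (PSMC subunits), which unfold substrates, and non-ATPase subunits (most PSMD proteins), which bind or remove ubiquitin. Dedicated chaperones (PSMG1 to PSMG4 for the core; PSMD5, PSMD9 and PSMD10 for the ATPase ring) assemble the parts, other activators (PSME1 to PSME4) can replace the cap, and PSMF1 inhibits the core. When the proteasome is impaired, the transcription factor NFE2L1 is known to raise its subunit genes together through antioxidant response elements.

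Between 48.0% and 56.8% of probes were well above background on each array, and no probe was saturated. One of the 2 arrays of CYGB+ replicate 1 stood apart, with a median correlation of 0.921 with the other arrays against 0.965 to 0.983 for the rest. Slide and group nearly coincided: 8 NCE arrays were on slide 1, and slide 2 held the third repeat of NCE replicate 1 and all 6 CYGB+ arrays. The study assessed cytoglobin in its clones by qPCR and in-cell ELISA, but on these arrays the CYGB probe did not check the labels. It was well above background on all 15 arrays, although the study describes the parent line as not expressing cytoglobin. Its log2 intensities were 11.87, 12.16 and 11.94 in NCE and 11.36, 12.42 and 11.96 in CYGB+. The difference was -0.07 ± 0.24 (adjusted p = 0.867 by limma). Whether the probe lies inside the transfected cDNA is not given in the sources used here, and the cause of its signal in NCE was not tested. All directions below therefore rest on the sample labels. They also rest on the labels' statement that every sample was labelled with Cy3, since the methods name cyanine 5 for the control. All 8 squamous epithelial markers passed the filter on dim probes, and summed to log2 intensities of 16.11 to 16.25 in NCE and 16.05 to 16.41 in CYGB+. Of 10 markers of fibroblasts, immune cells and endothelium, 7 did not pass it, with no or few arrays well above background. All 16 probes of the 10 markers summed to 10.59 to 10.83 in NCE and 10.53 to 10.67 in CYGB+. Only 3 of these probes were tested, so the sums hold many values near background and give no level of such cells. Of the markers KRT6A was lower by 0.51 and COL1A2 was lower by 1.33 in CYGB+ (log2), the only ones with an adjusted p under 0.05 by limma. The squamous markers went both ways, with KRT14 at 0.72, KRT17 at 0.60 and EPCAM at -0.50, none of which passed. The part of the markers in the proteasome values was not tested. In bulk RNA, fewer cells of a type and less RNA per cell cannot be told apart.

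Proteasome genes did not move together. Of 61 member probes tested, 7 passed an adjusted p of 0.05, 6 lower and 1 higher in CYGB+ (11.5%), against 12.9% of all 19605 probes tested in either direction, 6.31% higher and 6.62% lower. PSMA1, PSMA3 and PSMA6 of the alpha ring, the cap ATPase PSMC6, the activator subunit PSME2 and the chaperone PSMG1 were lower in CYGB+, and the chaperone PSMG2 was higher. The median over the 61 probes was -0.07 on the log2 scale, where the median over all probes tested was -0.00075. In 24 of 61 member probes (6 higher, 18 lower) the 3 CYGB+ values did not overlap the 3 NCE values, against 34.9% of all probes. All differences are CYGB+ minus NCE in log2 intensity ± 1 standard error. Unless another setting is named, they rest on 3 replicates a group, and p-values are from limma, adjusted over all 19605 probes. They measure only the spread between these samples.

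The count of 7 depended on single replicates, as did the count over all probes. It was 3 without NCE replicate 1, 0 without NCE replicate 2 and 0 without NCE replicate 3. It was 9 without CYGB+ replicate 1, 6 without CYGB+ replicate 2 and 4 without CYGB+ replicate 3. Over all probes the count went from 2535 to 1368, 670, 755, 2504, 1920 and 1667 in the same order. Without NCE replicate 2 or 3, 11 and 13 of 61 member probes had an unadjusted p under 0.05 by limma. Over all 19605 probes 4077 and 4218 had one. RNA was taken on 3 occasions. Deviations of same-numbered replicates correlated at 0.22, 0.23 and 0.31. Those of NCE replicate 1 and CYGB+ replicate 2 (0.22) and of NCE replicate 2 and CYGB+ replicate 3 (0.30) did so as well. The numbers were taken to pair the samples, which these values do not settle. With the replicate block the count was 12, the 7 and PSMB5, PSMD10, PSMD11, PSME1 and PSMG4, which is 19.7% of the member probes against 19.5% of all probes. Without the array that stood apart it was 14, among them the same 7, which is 23% against 21.6%. With slide as a term 3 probes passed (PSMA1, PSMA3 and PSME1), which is 4.92% of the member probes against 3.6% of all probes. That fit used the 15 single arrays, with repeats of a replicate treated as correlated. Its slide term rests on the 1 NCE array of slide 2. On slide 2 alone 1 NCE array faced 6 CYGB+ arrays, and sizes of the differences there are given further below.

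**Figure D1:**
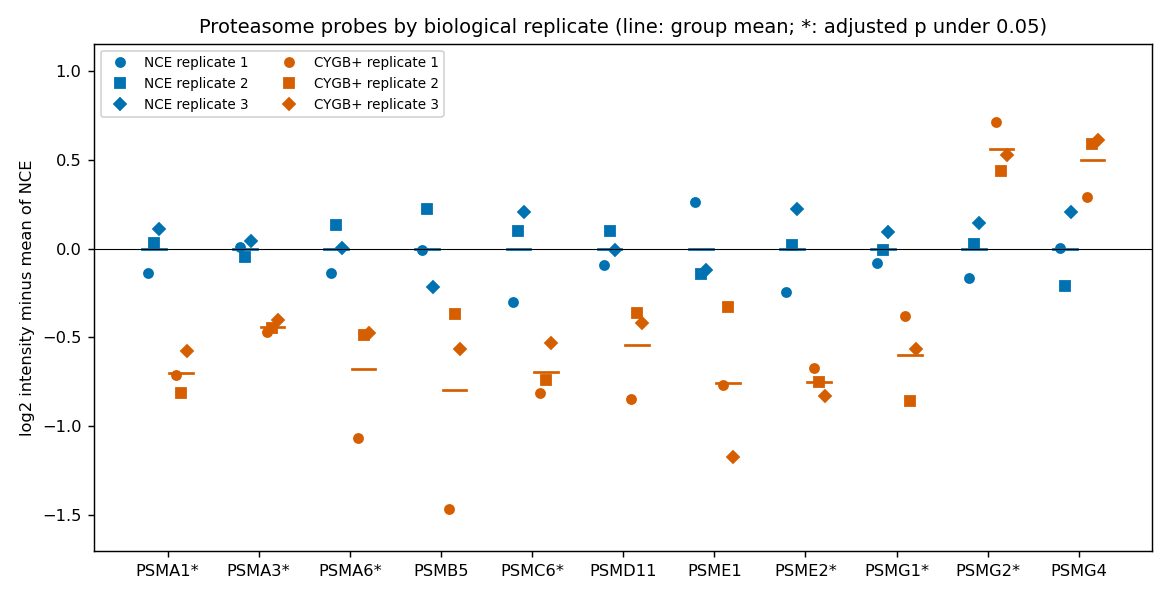
Log2 intensity of 11 proteasome probes in each biological replicate, minus the NCE mean of that probe. Blue points are NCE, orange points CYGB+, circles, squares and diamonds replicates 1, 2 and 3, lines group means, and asterisks mark an adjusted p under 0.05. The 3 replicates of CYGB+ sit close together for PSMA3 and PSME2 and far apart for PSMB5, where replicate 1 lies lowest.

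The sequences before the 7 called genes are shown because the element through which NFE2L1 acts was searched in them. RefSeq held a window around at least 1 start for 39 of the 45 role-group genes. The 250 bases before the start (before the first listed start for PSMA6 and PSMG2, which have 2) are printed 5′ to 3′ on the strand of the gene, from build GRCh38.p14. PSMA1 lies at chr11:14520387-14520636 on the minus strand and PSMA3 at chr14:58244593-58244842 on the plus strand. PSMA6 lies at chr14:35292067-35292316 and PSMC6 at chr14:52706950-52707199, both on the plus strand. PSME2 lies at chr14:24146611-24146860 and PSMG1 at chr21:39183452-39183701, both on the minus strand, and PSMG2 lies at chr18:12658488-12658737 on the plus strand. Capitals mark the core of the antioxidant response element, TGACNNNGC, and the CCAAT box, searched on both strands (a CCAAT on the other strand reads ATTGG).
PSMA1: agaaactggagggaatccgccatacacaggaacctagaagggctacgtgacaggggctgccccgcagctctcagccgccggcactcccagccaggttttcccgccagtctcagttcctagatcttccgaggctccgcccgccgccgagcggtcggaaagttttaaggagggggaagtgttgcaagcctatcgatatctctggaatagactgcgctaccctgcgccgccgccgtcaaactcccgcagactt
PSMA3: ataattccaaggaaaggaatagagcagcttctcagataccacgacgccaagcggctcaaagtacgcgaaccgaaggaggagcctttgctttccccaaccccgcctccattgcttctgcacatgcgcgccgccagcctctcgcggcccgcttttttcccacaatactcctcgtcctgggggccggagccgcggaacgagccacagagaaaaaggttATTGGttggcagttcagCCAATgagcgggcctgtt
PSMA6: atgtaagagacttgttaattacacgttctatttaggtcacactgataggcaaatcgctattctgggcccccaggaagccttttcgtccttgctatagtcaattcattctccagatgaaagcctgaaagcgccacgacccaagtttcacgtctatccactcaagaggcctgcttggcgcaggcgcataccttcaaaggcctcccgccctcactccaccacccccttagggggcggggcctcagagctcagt
PSMC6: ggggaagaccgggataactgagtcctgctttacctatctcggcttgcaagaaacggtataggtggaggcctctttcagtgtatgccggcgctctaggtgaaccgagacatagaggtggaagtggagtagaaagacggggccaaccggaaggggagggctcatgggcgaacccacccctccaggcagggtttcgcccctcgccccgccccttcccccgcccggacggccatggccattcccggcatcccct
PSME2: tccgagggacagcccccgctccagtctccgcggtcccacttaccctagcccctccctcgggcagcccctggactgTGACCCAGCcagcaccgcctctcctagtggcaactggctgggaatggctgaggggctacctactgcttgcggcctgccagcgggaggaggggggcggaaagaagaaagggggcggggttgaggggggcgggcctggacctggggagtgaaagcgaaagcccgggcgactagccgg
PSMG1: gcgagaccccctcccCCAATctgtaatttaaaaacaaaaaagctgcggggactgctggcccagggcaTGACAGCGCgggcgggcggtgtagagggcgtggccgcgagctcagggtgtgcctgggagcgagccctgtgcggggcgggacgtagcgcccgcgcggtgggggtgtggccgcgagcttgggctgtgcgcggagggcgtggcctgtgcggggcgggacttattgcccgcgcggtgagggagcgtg
PSMG2: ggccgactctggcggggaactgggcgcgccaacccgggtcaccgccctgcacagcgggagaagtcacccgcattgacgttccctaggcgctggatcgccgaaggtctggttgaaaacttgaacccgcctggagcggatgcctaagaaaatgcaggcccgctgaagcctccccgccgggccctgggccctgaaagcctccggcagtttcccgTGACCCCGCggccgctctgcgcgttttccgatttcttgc

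TGACNNNGC was in 14 of 47 windows of the role-group genes (29.8%, windows of 300 bases that also hold 50 bases after the start) and in 13.3% of all 35116 windows. By role it was in 2 of 16 windows of the core particle, 2 of 7 of the cap ATPases, 3 of 11 of the non-ATPases, 4 of 7 of the chaperones and 3 of 6 of the activators and inhibitor. Among the called genes PSME2 and PSMG1, both lower, and PSMG2, which was higher, held it. CCAAT was in 40.4% of the role-group windows and 34.6% of all windows, and it lay on both strands in the window of PSMA3. A match is a description of the letters and no evidence of binding.

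The alpha ring held 3 of the 6 lower probes, and the beta ring held none. These were 3 of 8 tested alpha ring probes (37.5%), against 6.62% lower and 12.9% in either direction over all probes. PSMA3 and PSMA6 lie on chromosome 14, where 25.8% of all tested probes were lower. PSMA1 (probe A_23_P150286) had log2 intensities of 13.87, 14.04 and 14.12 in NCE and 13.30, 13.20 and 13.44 in CYGB+. It was 1.62-fold lower in CYGB+, a difference of -0.70 ± 0.13 (adjusted p = 0.0130). A second PSMA1 probe, on another transcript, differed by -0.20 ± 0.21 (adjusted p = 0.560) with overlapping groups, so that the 2 probes disagreed on the call. PSMA6 had 14.17, 14.44 and 14.31 in NCE and 13.24, 13.82 and 13.83 in CYGB+ (-0.67 ± 0.18, adjusted p = 0.0430). PSMA3 showed the tightest replicate means of the 7, but the arrays of NCE replicate 1 read 14.41, 14.31 and, on slide 2, 14.96. Its replicate means were 14.56, 14.51 and 14.60 in NCE and 14.08, 14.11 and 14.15 in CYGB+ (-0.44 ± 0.12, adjusted p = 0.0406). Its size depended on the scaling, with -0.31 (adjusted p = 0.169) after scaling to the 75th percentile, -0.22 (adjusted p = 0.392) with the processed signal so scaled, and -0.24 (adjusted p = 0.425) in the authors' value table, against -0.89 with slide as a term. None of the 3 genes had overlapping groups at these probes. The other alpha subunits did not pass, from PSMA7 at -0.29 ± 0.13 (adjusted p = 0.167) to PSMA4 at 0.14 ± 0.20 (adjusted p = 0.672), and PSMA8, the testis form of an alpha subunit, was well above background on no array and was not tested.

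In the beta ring the lowest difference was that of PSMB5, the chymotrypsin-like subunit that bortezomib binds. Its values were 12.87, 13.10 and 12.66 in NCE and 11.42, 12.51 and 12.31 in CYGB+, a difference of -0.80 ± 0.27 that did not pass (adjusted p = 0.0829). The lowest of these was from CYGB+ replicate 1, and without the array that stood apart the difference was -0.49 (adjusted p = 0.0298). With the replicate block PSMB5 passed (adjusted p = 0.0241). The other catalytic subunits lay near 0, PSMB6 (caspase-like) at -0.03 ± 0.20 and PSMB7 (trypsin-like) at 0.01 ± 0.18. PSMB4 had the highest difference of the ring, 0.21 ± 0.13 (adjusted p = 0.308), and the 2 probes of PSMB2 were at -0.22 ± 0.15 and -0.43 ± 0.16. Both probes of PSMB11, the thymus form of PSMB5, were too dim to be tested. Over the 14 core genes tested, 3 of 17 probes passed, all lower (17.6%, against 6.62% lower and 12.9% in either direction over all probes). The median core probe differed by -0.03, with -0.25 in the alpha ring and -0.02 in the beta ring. The inducible subunits left out of the set did not pass either, PSMB9 at -0.66 ± 0.23 (adjusted p = 0.0976), PSMB8 at -0.06 ± 0.19 and PSMB10 at 0.26 ± 0.12.

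Among the cap ATPases 1 of 7 probes passed (14.3%, against 12.9% of all probes tested) and the median was -0.20. PSMC6 had 12.85, 13.24 and 13.35 in NCE and 12.34, 12.41 and 12.61 in CYGB+, a 1.62-fold lower level (-0.69 ± 0.16, adjusted p = 0.0272). All CYGB+ values of PSMC6 lay below all NCE values. With slide as a term the difference of PSMC6 was -0.26 (adjusted p = 0.664), and on slide 2 alone it was -0.17, where the NCE array read 0.33 below the other 2 arrays of NCE replicate 1. PSMC3 was at -0.50 ± 0.26 (adjusted p = 0.241), with 11.70, 12.10 and 11.85 in NCE and 10.72, 11.72 and 11.72 in CYGB+. Without the array that stood apart its difference was -0.17 (adjusted p = 0.332). PSMC1 had 2 probes of opposite sign, -0.13 ± 0.14 and 0.26 ± 0.20, neither of which passed. The second was 0.48 and higher in CYGB+ without the array that stood apart (adjusted p = 0.0154), and -0.10 with slide as a term. PSMC2 (-0.20 ± 0.16), PSMC4 (0.14 ± 0.19) and PSMC5 (-0.21 ± 0.25) did not pass.

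Where 12.9% of all probes tested passed, none of the 13 cap non-ATPase probes did, and their median was 0.01. In the same limma fit 2 of them had an unadjusted p under 0.05, as had 5868 of all 19605 probes. PSMD11, a scaffold subunit of the lid, came nearest with 11.44, 11.63 and 11.53 in NCE and 10.69, 11.17 and 11.11 in CYGB+ (-0.54 ± 0.16, adjusted p = 0.0536). Its groups did not overlap, and it passed with the replicate block (adjusted p = 0.0262) and without the array that stood apart (-0.44, adjusted p = 0.0186). PSMD13 was at -0.37 ± 0.15 (adjusted p = 0.133). At the other end PSMD2, which docks ubiquitin-binding partners, had probes at 0.20 ± 0.21 and -0.07 ± 0.16. The first was 0.46 and passed without CYGB+ replicate 1 (adjusted p = 0.0363), and was 0.065 without CYGB+ replicate 2 and 0.063 without CYGB+ replicate 3. PSMD14, the deubiquitinase of the lid, was at 0.03 ± 0.14, and the ubiquitin receptor PSMD4 at -0.08 ± 0.15. The probes of PSMD1, PSMD3, PSMD6, PSMD7, PSMD8 and PSMD12 lay between -0.21 and 0.18.

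**Figure D2:**
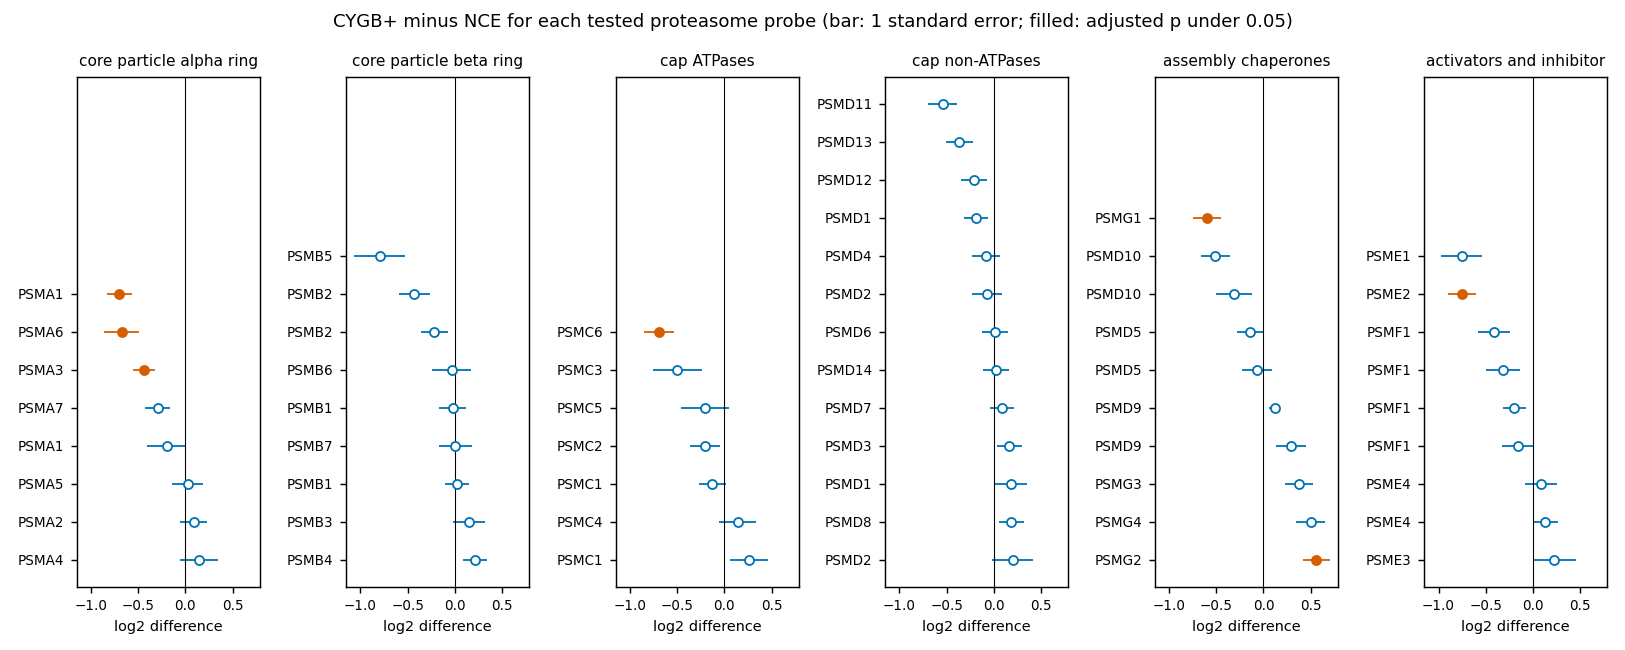
Log2 difference, CYGB+ minus NCE, of each of the 56 tested proteasome probes by role group, 1 row a probe. Points are the fitted differences, bars 1 standard error with 3 replicates a group, and filled orange points have an adjusted p under 0.05. Each of the 6 groups spans both sides of 0, from -0.80 for PSMB5 to 0.56 for PSMG2.

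The assembly chaperones went both ways. PSMG1, which pairs with PSMG2 to start the alpha ring, had 13.29, 13.36 and 13.46 in NCE and 12.99, 12.52 and 12.81 in CYGB+ (-0.60 ± 0.15, adjusted p = 0.0341). Its partner PSMG2 had 9.75, 9.94 and 10.06 in NCE and 10.63, 10.36 and 10.45 in CYGB+ (0.56 ± 0.14, adjusted p = 0.0353). The partners of this heterodimer thus passed in opposite directions, PSMG1 1.51-fold lower and PSMG2 1.47-fold higher, with no overlap between groups in either. The members of the other pair both lay above 0 without passing, PSMG3 at 0.38 ± 0.14 (adjusted p = 0.121) and PSMG4 at 0.50 ± 0.16 (adjusted p = 0.0681). PSMG4 had 10.64, 10.42 and 10.84 in NCE and 10.93, 11.23 and 11.25 in CYGB+, without overlap, and passed with the replicate block (adjusted p = 0.0442). A second PSMG4 probe was too dim to be tested. Of the chaperones of the ATPase ring, PSMD10 (gankyrin, also an oncoprotein) had probes at -0.31 ± 0.19 and -0.51 ± 0.15 (adjusted p = 0.0581), PSMD9 at 0.29 ± 0.16 and 0.12 ± 0.06, and PSMD5 at -0.14 ± 0.14 and -0.07 ± 0.16. The median over the 10 chaperone probes was 0.02.

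PSME1 and PSME2, the alternating subunits of the PA28 activator, differed by nearly the same amount between groups. PSME2 had 13.79, 14.05 and 14.26 in NCE and 13.36, 13.28 and 13.20 in CYGB+, 1.68-fold lower (-0.75 ± 0.15, adjusted p = 0.0154). PSME1 had 9.91, 9.51 and 9.53 in NCE and 8.88, 9.32 and 8.48 in CYGB+ (-0.76 ± 0.22, adjusted p = 0.0555). Neither had overlapping groups, but the replicates of PSME1 were more scattered. PSME1 passed with the replicate block (adjusted p = 0.0234) and with slide as a term (-1.17, adjusted p = 0.0243), where PSME2 did not (-0.75, adjusted p = 0.174). On slide 2 alone they were at -1.24 and -0.64, so the near equality was not seen there. The nuclear activator subunit PSME3 (0.23 ± 0.23) and the PA200 activator PSME4 (0.08 ± 0.17 and 0.13 ± 0.13) did not pass. All 4 probes of the inhibitor PSMF1 lay below 0, from -0.41 ± 0.17 to -0.16 ± 0.16, and none passed. Over the 9 probes 1 passed (11.1%, against 12.9% of all probes tested), and the median was -0.20. The 5 tested probes of the genes that share only the symbol (PSMC3IP, PSME3IP1, PSMA3-AS1 and PSMG3-AS1) ran from -0.36 to 0.19 and none passed. A sixth, for PSMG3-AS1, was too dim to be tested. Of the 5 probes 2 had an unadjusted p under 0.05 in the limma fit, as had 5868 of all 19605 probes.

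The role groups were compared by their medians in each replicate, taken relative to the NCE mean of every probe. The core particle was at -0.06, 0.05 and 0.04 in NCE and at -0.40, 0.02 and 0.01 in CYGB+, so that only CYGB+ replicate 1 lay outside the NCE values. The cap ATPases were at -0.16, 0.10 and -0.03 in NCE and -0.41, -0.06 and 0.08 in CYGB+, and again the groups overlapped. The chaperones overlapped as well, with -0.08, 0.02 and 0.07 against -0.02, 0.01 and 0.15. The alpha ring on its own (-0.14, 0.02 and 0.08 against -0.34, -0.39 and -0.20) and the activators with the inhibitor (-0.0028, 0.0076 and -0.09 against -0.17, -0.20 and -0.23) did not overlap. These are descriptions of lists and carry no test.

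Where the genes lie went with how they differed. This pattern was noticed after the values were seen, and gene order was taken from RefSeq. Of the 7 called genes, 4 are on chromosome 14 (PSME2, PSMA6, PSMC6 and PSMA3), PSMG1 is on chromosome 21, PSMG2 on chromosome 18 and PSMA1 on chromosome 11. The median difference of all tested probes was -0.58 on chromosome 21, -0.37 on chromosome 20 and -0.30 on chromosome 14, while on all other numbered chromosomes and X it lay between -0.09 and 0.27. Of the 15 member probes on chromosomes 14, 20 and 21, 5 were lower, 14 lay below 0 and the median was -0.41. All 1081 other probes of these chromosomes had a median of -0.37 and 34.9% of them were lower. Of the 46 member probes on the remaining chromosomes, 1 was lower and 1 higher, with a median of 0.02, where the 14021 other probes had a median of 0.02 and 4.93% were lower. Pooled in this way, the median of the member probes lay close to that of the other probes in both sets. On chromosome 14 alone it did not, with -0.67 for 9 member probes and -0.30 for the 480 others. On slide 2 alone, where 1 NCE array faced 6 CYGB+ arrays, the medians of the probes that are no members were -0.56, -0.37 and -0.25 on chromosomes 21, 20 and 14.

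**Figure D3:**
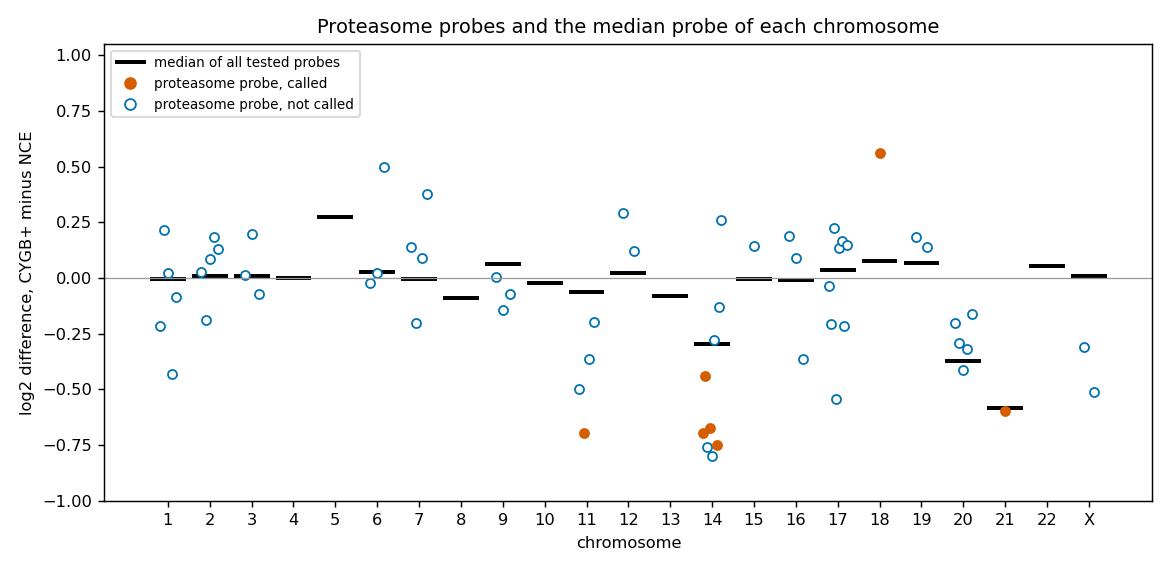
Log2 difference, CYGB+ minus NCE, of the 61 tested member probes by chromosome (circles, filled orange where the adjusted p was under 0.05), with the median of all tested probes of the chromosome as a black bar. The bars of chromosomes 14, 20 and 21 lie at -0.30, -0.37 and -0.58, and 5 of the 6 lower member probes sit on chromosomes 14 and 21.

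Chromosome 14 carries 8 of the role-group genes on the array, 7 of them tested. In gene order PSMB5, PSME1, PSME2, PSMA6, PSMC6 and PSMA3 come first, at -0.80, -0.76, -0.75, -0.67, -0.69 and -0.44, and PSMC1 lies far behind them at -0.13 and 0.26. Of the 166 probes of other genes between PSMB5 and PSMA3, 55 were lower, 89.8% lay below 0 and the median was -0.40. In the 39 probes before PSMB5 the median was -0.63, and in the 275 other probes after PSMA3 it was -0.15. The 10 nearest tested genes on each side of PSMC1 had a median of 0.02 and were split evenly about 0. EMC9, the only tested gene between PSME1 and PSME2, differed by -0.79 and was lower. Genes of the alpha ring, the beta ring, the ATPase ring and the PA28 activator thus lay together in a stretch where most other genes were also below 0. All 6 of these genes lay below the median of up to 10 nearest tested genes on each side, with own minus neighbours at -0.33 for PSMB5, -0.14 for PSME1, -0.15 for PSME2, -0.35 for PSMA6, -0.30 for PSMC6 and -0.25 for PSMA3.

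**Figure D4:**
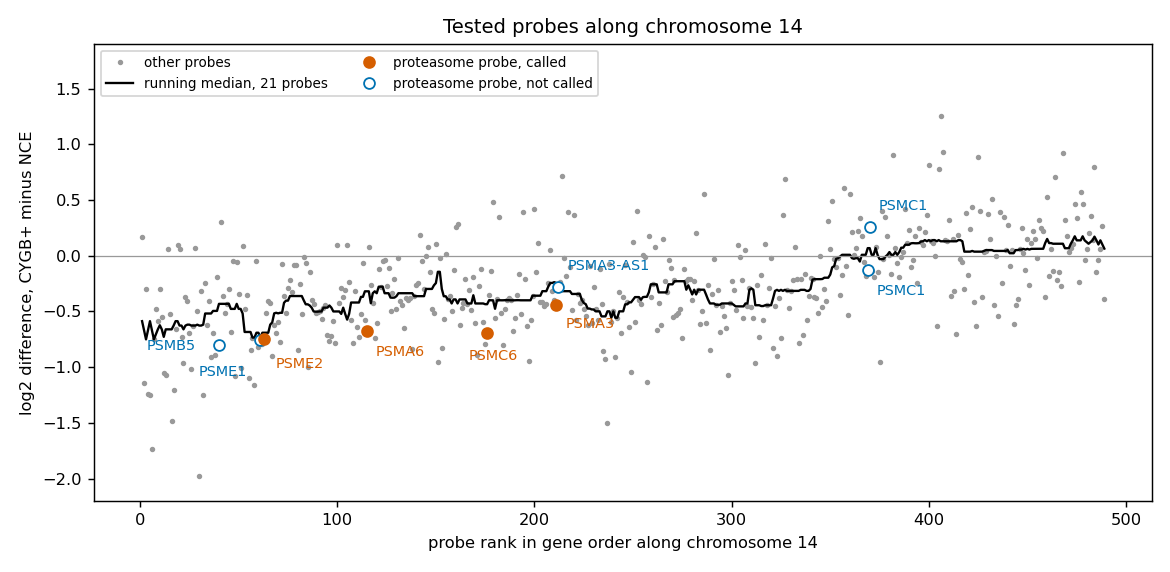
Log2 difference, CYGB+ minus NCE, of the 489 tested probes of chromosome 14, ranked by gene order (horizontal axis), with a running median (line). Proteasome probes are circled, filled orange where the adjusted p was under 0.05. Those from PSMB5 to PSMA3 lie below 0 with the probes around them, and the 2 probes of PSMC1 lie where the running median is near 0.

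Each of the 43 tested role-group genes was set beside the median of up to 10 nearest tested genes on each side. Over these genes the own difference and the neighbours' median had a Pearson correlation of 0.76 and a Spearman correlation of 0.56, and without the 10 genes on chromosomes 14, 20 and 21 the Pearson correlation over the other 33 was 0.48. These are descriptions over genes, which share arrays and, on chromosome 14, neighbours. In all, 35 of the 43 genes lay within 0.3 of their neighbours' median. Neither this count nor the correlations were worked out over all tested genes, so neither is shown to be particular to the proteasome. PSMG2, the only member called higher, was at 0.56 among neighbours at 0.50, of which 1 of 20 lay below 0. PSMG1, at -0.60, lay among neighbours at -0.69. PSMA1, at -0.45 over its 2 probes, lay among neighbours at -0.51, with 19 of 20 below 0. The opposite differences of the PSMG1 and PSMG2 pair were therefore each close to those of the genes next to them. PSMD13 (-0.37, neighbours -0.42) and PSMA7 (-0.29, neighbours -0.37) were as close. With 25 genes on each side the neighbours of PSMG1 were at -0.63. Those of PSMG2 were then at 0.24, further from its own 0.56, so its closeness held for the nearest genes only. Of the called genes on chromosome 14, with 10 genes on each side, PSMC6 (-0.69, neighbours -0.39) lay just inside 0.3. PSMA3 (-0.44, neighbours -0.19) was then further from its neighbours than PSME2 (-0.75, neighbours -0.60). With 25 genes on each side this order turned, with neighbours at -0.40 for PSMA3 and -0.51 for PSME2.

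The 8 genes that lay further than 0.3 from their neighbours were of mixed role. PSMC3 (-0.57 from its neighbours), PSMD11 (-0.52), PSMD10 (-0.50), PSMB2 (-0.35), PSMA6 (-0.35) and PSMB5 (-0.33) lay below them. PSMG4 (0.44) and PSMG3 (0.39), which form a pair in core assembly, lay above them. Of these only PSMA6 had passed the test. Relative to the neighbours the median was 0.02 over the 14 core genes, -0.25 over the 6 cap ATPases and 0.09 over the 7 chaperones, against -0.02, -0.20 and 0.20 for the same gene means before neighbours were taken into account. In the alpha ring it was 0.07, against -0.29 before. With 25 genes on each side the neighbours of PSMA6 were at -0.39 and those of PSMB5 at -0.57, nearer to the genes' own -0.67 and -0.80. Which genes lay beyond 0.3 thus depended on the number of neighbours taken.

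**Figure D5:**
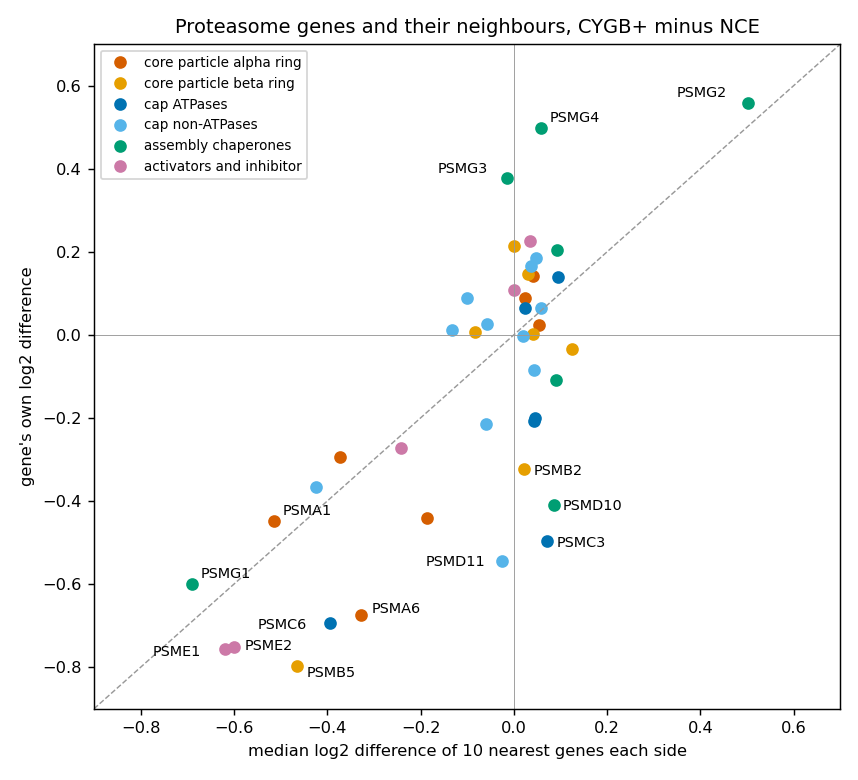
Own log2 difference of each of the 43 tested role-group genes (mean of its probes, vertical axis) against the median of up to 10 nearest tested genes on each side (horizontal axis), coloured by role, with the line of equality dashed. PSMG1, PSMA1, PSME1, PSME2 and PSMG2 lie near the line, and PSMC3, PSMD10, PSMD11, PSMG3 and PSMG4 lie off it with neighbours near 0.

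Slide was a further property that moved with group. On slide 2 alone, the differences of the called probes were -0.87 for PSMA1, -0.85 for PSMA3, -0.47 for PSMA6, -0.17 for PSMC6, -0.64 for PSME2, -0.68 for PSMG1 and 0.78 for PSMG2. All 7 kept their sign. The NCE array on slide 2 differed from the other arrays of the same replicate by 0.46 for PSMA1 and 0.60 for PSMA3, beside differences between groups of -0.70 and -0.44. The part of the slide in these values was not tested beyond these comparisons.

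The genes that work with the proteasome moved little. These were 39 tested probes for 29 genes of the NFE2L1 axis, of assembly and cap-associated factors and of ubiquitin and its shuttles. Of the 39, 3 were higher in CYGB+ and none lower, 7.69% against 12.9% of all probes. In either direction 8 of the 39 had an unadjusted p under 0.05 by limma, as had 5868 of all 19605 probes. The 3 were MAFK (0.61 ± 0.16, adjusted p = 0.0368) and MAFF (0.57 ± 0.14, adjusted p = 0.0348), small MAF proteins that pair with NFE2L1 on DNA, and 1 of 3 probes of ZFAND5 (0.49 ± 0.13, adjusted p = 0.0417), a stress-induced protein that binds the cap. MAFK had 8.52, 8.49 and 8.57 in NCE and 9.41, 8.91 and 9.11 in CYGB+. MAFF had 8.32, 8.17 and 8.22 in NCE and 9.01, 8.74 and 8.67 in CYGB+. For both, all CYGB+ values lay above all NCE values, but with slide as a term neither passed and the difference of MAFF was 0.19. The other ZFAND5 probes were at 0.08 ± 0.15 and -0.37 ± 0.15, so that the gene's probes disagreed. None of the 3 probes passed without NCE replicate 1, NCE replicate 2, NCE replicate 3 or CYGB+ replicate 3.

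NFE2L1 itself was at 0.11 ± 0.18 (adjusted p = 0.711), with 11.49, 11.58 and 11.63 in NCE and 12.08, 11.38 and 11.59 in CYGB+. The groups overlapped. NGLY1, the glycosidase that processes NFE2L1, was at -0.37 ± 0.13 (adjusted p = 0.0979), and POMP, the chaperone of beta ring assembly, at 0.26 ± 0.15 (adjusted p = 0.269). UBB, which encodes ubiquitin, was at 0.27 ± 0.12 and did not pass (adjusted p = 0.167).

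Some properties limit single members. Probe sequences were not used here, and 21 of the role-group genes share their name with at least 1 of 52 pseudogenes in RefSeq (13 for PSMC1, 6 for PSME2 and 4 for PSMA6), so a probe may also read such a copy. Quantile normalization sets the same distribution on every array, so all differences are relative to the average probe.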

How the data were processed

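RNA of 3 NCE and 3 CYGB+ biological replicates, taken on 3 occasions, was hybridised to 15 Agilent human expression arrays (9 NCE, 6 CYGB+), per the labels with Cy3. The red channel, whose sample the labels do not name, was not used. The authors deposited scanner files with green spot and background intensity, not normalized, and flags from Feature Extraction 10.7.3.1, and a value table that on comparison with the scanner files was on a natural log scale and centred per probe, with medians of -0.161 to 0.182 per array; its centring rule is not stated. The methods state quantile normalization of 1-colour data and testing at a false discovery rate of 5%.

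Median green intensity (the files used here hold no mean signal, which had been planned) was background-corrected with normexp (offset 50), spots flagged as outliers were left out, and log2 values were quantile-normalized over 15 arrays, averaged per probe and then per biological replicate (R 4.3.3, limma 3.58.1). Probes well above background on every array of at least 1 group were kept (19605 of 42405). Groups were compared with lmFit and eBayes (trend), two-sided, adjusted after Benjamini and Hochberg over all of these, and called at 0.05. The fit was tested on simulated data. The number of biological replicates, 3 a group, limits the precision. Symbols, gene order and sequences were from RefSeq tables (GRCh38.p14; 25422 of 27310 probes with a RefSeq accession matched a symbol); no coordinates of probes are given, since the array was designed on another build. Motifs and figures were made with Python 3.11.15 and matplotlib 3.10.9.

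Deviations of same-numbered replicates correlated at 0.216, 0.232 and 0.312. Those of the 6 pairs of unlike number ran from -0.514 to 0.304, with 3 above 0 (0.219, 0.304 and 0.168). The correlations alone therefore do not single out the pairing by number. The extractions were made on separate occasions, so the numbers were taken to pair the samples. The blocked fit called 12 member probes. Unless another setting is named, counts and p-values are from the fit without this block. Members, lists and role groups were chosen with earlier results of these data known. Genes were named where a probe was called, or had the highest or lowest difference of its role group, and pathway genes where called. Genes named outside this rule (such as PSMC3, PSMD10, PSMG3, PSMG4, PSMD13 and EMC9) and the position comparisons were chosen after values were seen.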

Additional observations from a re-analysis of the deposited data

How the results depend on the processing

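Directions of the 7 called proteasome probes were the same under all 19 alternatives run, and the calls were not. The changed filters, the replicate block and the methods' t-test kept the group means of the main fit, so they could not turn a sign. The methods' t-test here is a pooled t-test on the values, filter and averaged replicates of the main fit. Its counts are therefore not those that the study reported from its own processing. The count of member probes called was 7, and 4 with scaling to the 75th percentile, 2 without a filter on dim probes, 12 with the replicate block, 3 with slide as a term, 13 with arrays as units, 0 on slide 2 alone, 1 with the methods' t-test at a false discovery rate of 5% and 0 of 56 in the authors' value table (8 and 12 with an unadjusted p under 0.05 by limma on slide 2 and in that table). The count over all probes was 2535, and in the same order 1587, 1484, 3817, 705, 4604, 48, 763 and 1312. Alternatives chosen after seeing the data left out the array that stood apart (14 and 4228) or the 3 arrays with a median correlation under 0.97 (18 and 5119). Leaving out 1 replicate gave 0 to 9 member probes, 670 to 2504 probes in all and 0 to 3 pathway probes. The 3 pathway calls became 0 without the filter, with slide as a term and with the methods' t-test, and 7 with arrays as units or without the 3 arrays. Of the called member probes 2 to 7 were among those called in each alternative but for slide 2, the authors' table, the methods' t-test (PSMA3 alone) and leaving out NCE replicate 2 or 3.

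The median of the alpha ring moved from -0.25 to -0.46 with the scanner's processed signal after quantile normalization, and ran from -0.34 to -0.14 with 1 replicate left out. That of the activators and inhibitor moved from -0.20 to -0.35 with the processed signal and to -0.32 with it scaled to the 75th percentile. In the latter the cap ATPases were at 0.045 and the non-ATPases at 0.15. The cap ATPases were at 0.0080 on slide 2, the non-ATPases at 0.13 in the authors' table, and the chaperones at -0.068 there and -0.072 with probes well above background on all arrays. No scaling moved the median of all probes by over 0.1.

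Signs turned for values that had not passed. The CYGB probe was at 0.081 with the processed signal scaled to the 75th percentile, 0.047 in the authors' table, and -0.33 to 0.20 with 1 replicate left out (0.0084 without NCE replicate 2 and 0.20 without CYGB+ replicate 1). With slide as a term and on slide 2, PSMC1 was at -0.10 and -0.12, PSMA4 at -0.068 and -0.063, PSME3 at -0.019 and -0.13, and PSMB4 at -0.19 and -0.15. PSMA4 was also at -0.047 without the array that stood apart and -0.055 without 3 arrays. With 1 replicate left out PSMA4 ran from -0.072 (without CYGB+ replicate 1) to 0.35 and PSME3 from -0.0032 (without CYGB+ replicate 2) to 0.38. The causes were not tested. Over the alternatives the median of probes that are no members ran from -0.39 to -0.09 on chromosome 14, -0.51 to -0.14 on chromosome 20 and -0.83 to -0.09 on chromosome 21, in each case nearest 0 without the filter on dim probes.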
